A study of Mus musculus with 12 samples.

Results

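A set of 52 genes on mouse chromosome 1 was followed, all listed on the telomeric side of Sgpp2 and within about 200 protein-coding genes of it. Of the 52 genes, 48 had a probe set that named no other gene, and all 48 were above the filter on low values, among 15237 genes tested in all. Ano7, Serpine2 and Arl4c carry no name in the probe table, and the probe set of Ptma also names Gm15466, so these 4 genes were not analysed here. RNA was measured on 12 Affymetrix mouse arrays, 1 array per sample, in 4 groups of 3 arrays. The groups were wild-type mice (WT) on a normal diet, Sgpp2-/- mice (KO) on a normal diet, WT mice on a high-fat diet and KO mice on a high-fat diet, all of strain C57BL6. The labels gave no tissue, age or duration of the diet, and the title of the series names the pancreatic islet. Nothing in the labels says that each array had an animal of its own. The p-values therefore measure how far these samples spread, which may be technical. All values are log2 RMA values, in which a step of 1 stands for a doubling, and a difference is KO minus WT unless another is named. A gene was called where limma's adjusted p over all genes tested was under 0.05.

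Sgpp2 encodes a phosphatase that dephosphorylates the signalling lipid sphingosine-1-phosphate at the endoplasmic reticulum. A targeted allele that was made in stem cells of one mouse strain and bred into another can bring along a stretch of flanking chromosome from the first strain, and how far that stretch reaches depends on where recombination occurred during the backcross. Strain differences in flanking genes then separate the genotypes together with the loss of the gene itself. The sources used here do not say in which cells the Sgpp2 allele was made or how many backcrosses followed, and for every gene near Sgpp2 an effect of its loss cannot be told apart from such a segment.

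The listed genes have many roles in the cell. They include parts of the ubiquitin and proteasome system (Cul3, Psmd1, Cops7b, Cops8, Asb1), of protein synthesis and mitochondria (Farsb, Mrpl44, Ndufa10), of lipid and phosphoinositide metabolism (Acsl3, Dgkd, Inpp5d), of membrane traffic and GTPase control (Agap1, Pde6d, Mlph, Kif1a) and of the cell surface (Itm2c, Gpc1, Ramp1, Cdh7). Their mean levels over the 12 arrays ran from 6.08 for Ngef to 12.54 for Itm2c, with a median of 10.47. Counted in protein-coding genes from Sgpp2, Farsb was the 1st and Cdh7 the 198th. The next listed gene inside Cdh7 was Bok, in place 152. Just inside the limit, Cdh19 (place 199) and Dsel (place 200) differed by 0.11 and −0.05 on average over both diets, and just outside it Cntnap5a, in the next place, and Tsn by −0.21 and −0.05; none of these 4 genes is on the list.

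The targeted gene was read first. Sgpp2 read 11.55, 11.51 and 11.63 in WT and 11.03, 11.17 and 10.99 in KO on the normal diet. High-fat values were 11.48, 11.46 and 11.57 in WT and 11.12, 11.11 and 11.02 in KO. All 6 KO arrays were below all 6 WT arrays. The Sgpp2 difference was −0.46 on average (adjusted p = 0.00327), −0.50 with normal food (adjusted p = 0.0263, a call lost in 7 of 21 alternatives) and −0.42 with high-fat food (adjusted p = 0.0824). Whether the probe set lies inside the deletion is not stated in the labels, and outside it this reading would check nothing.

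Within a group, pairs of arrays correlated at 0.9912 to 0.9959. Endocrine markers were bright (14 of 17 tested, median level 14.06) and so were acinar markers (12 of 14 tested, median level 13.96). On average over both diets 12 of 12 acinar markers were higher in KO, with a median difference of 0.135 and 0 called. In units of 1000, the summed linear level of the acinar markers was 149 to 170 in WT and 173 to 198 in KO on the normal diet, while on the high-fat diet, with 138 to 170 in WT and at most 167 in KO, the genotypes overlapped. All 7 endothelial markers were lower in KO, 2 of them called, with a median of −0.21; their sums, in the same units, were 12.6 to 13.7 in WT and 11.3 to 12 in KO on the normal diet and 13.0 to 13.4 in WT and 11.7 to 12.6 in KO on the high-fat diet. Over all genes, 59.5% were lower in KO on average and 6.32% were called, with a median of −0.04. The part of these markers in the results below was not tested. In such bulk samples, fewer cells of a type and less RNA per cell cannot be told apart.

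On the normal diet, 0 of the 48 genes were called by limma, against 0.84% of all genes tested, and 14 of them (29.2%) had an unadjusted p under 0.05, against 22.1% of all genes. The differences ran from −0.44 for Mlph to 0.96 for Cdh7, and 33 of 48 (68.8%) were negative, against 59.8% of all genes. The median difference was −0.13 for the listed genes and −0.05 for all genes, and the median size without its sign was 0.17 and 0.16. The smallest adjusted p was 0.0647, for Itm2c. In 21 genes (43.8%) the KO and WT arrays did not overlap, 16 lower and 5 higher in KO, against 34.3% of all genes, 22.2% lower and 12% higher.

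On the high-fat diet, 0 of the 48 genes were called, against 0.0263% of all genes, and 9 (18.8%) had an unadjusted p under 0.05 in limma, against 13.4% of all genes. The differences ran from −0.58 for Mlph to 1.01 for Cdh7, and 33 of 48 were negative, against 56.7% of all genes. The median difference was −0.12 for the listed genes and −0.03 for all genes, with a median size of 0.13 and 0.12. In 12 genes (25%) the arrays did not overlap, 9 lower and 3 higher in KO, against 14.8% of all genes, 7.52% lower and 7.31% higher. Without WT high-fat array 2, 1 gene was called on this diet, Farsb (difference −0.44, adjusted p = 0.0363), and 272 of all genes were (1.79%).

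Averaged over both diets, with 6 arrays per genotype, 5 of the 48 genes were called (10.4%), against 6.32% of all genes, 3.3% higher and 3.02% lower. Itm2c, Pde6d, Agap1 and Asb1 fell in KO by 0.28 to 0.33, and Cdh7 rose by 0.98. Of the 48 genes, 18 (37.5%) had an unadjusted p under 0.05, against 28.6% of all genes, and 35 (72.9%) were negative, against 59.5%. The median difference was −0.11, against −0.04 over all genes, and the median size was 0.13 for the listed genes and 0.12 over all genes. The split of 1 higher and 4 lower among the calls became 1 and 2 after cyclic loess, where 5.59% of all genes were called. It became 1 and 1 after each array was centred on its median, where 7.13% of all genes were called and the median of all genes moved to 0.01. In 26 genes the difference was negative on both diets and in 8 positive on both. Over all genes, 59.8% were negative on the normal diet and 56.7% on the high-fat diet, and the share on both diets was not counted. In 7 genes (14.6%) the arrays did not overlap in the same direction on either diet, against 7.43% of all genes: Cab39, Itm2c, Pde6d, Agap1, Cops8 and Asb1 were lower and Cdh7 was higher. In 4 genes (8.33%), Itm2c, Pde6d, Cops8 and Asb1, all 6 KO arrays were below all 6 WT arrays, against 4.99% of all genes in either direction.

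**Figure D1:**
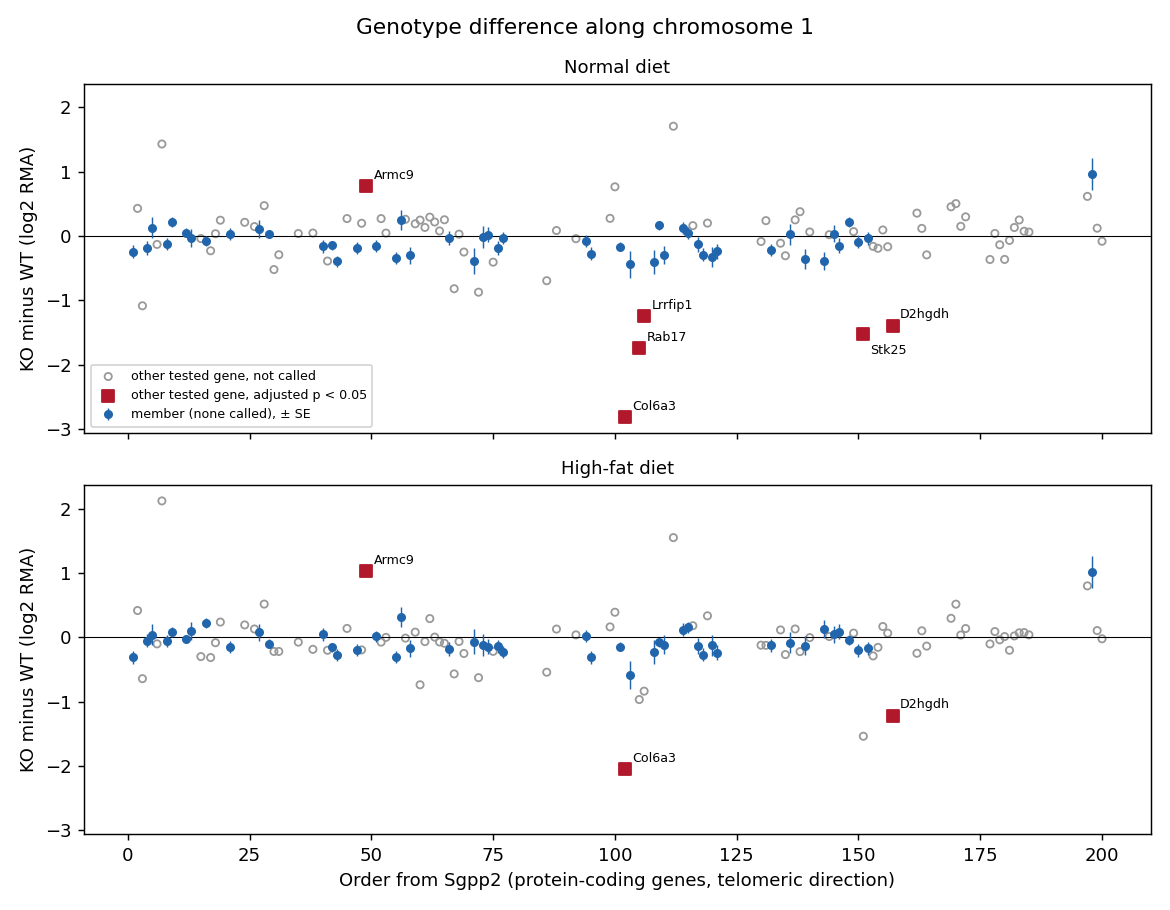
The difference between KO and WT (log2 RMA values) is plotted against the order of genes from Sgpp2 for the normal diet (top) and the high-fat diet (bottom), with listed genes as filled circles with the standard error, and other tested genes as open circles, or as squares where called. Listed genes lie between −0.58 and 0.31 on both diets except Cdh7 at 0.96 and 1.01, while Col6a3 in place 102 lies at −2.81 and −2.05.

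The count of 5 depended on single arrays. It was 2 when array 1 or 3 of either WT group, or the third KO high-fat array, was left out. It was 3 when array 2 of KO normal or of KO high-fat was left out, 1 when KO normal array 3 was, and 14 (29.2%) when WT high-fat array 2 was. The calls over all genes moved as well: 963 with all arrays, 260 (1.71%) without KO normal array 3 and 2500 (16.4%) without WT high-fat array 2. With the mean over probe sets 6 genes were called, against 4.41% of all genes: Itm2c, Pde6d and Asb1 again, and Usp40, Mlph and Scly, while Agap1 and Cdh7 were not. KO arrays of the same number deviated together across the diets. A fit that took these pairs as a random block called 3 genes, against 2.31% of all genes: Itm2c (adjusted p = 0.0346), Pde6d (adjusted p = 0.0495) and Cdh7 (adjusted p = 0.0237). Agap1 (adjusted p = 0.0761) and Asb1 (adjusted p = 0.0665) were not called by it.

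The promoter windows of the 5 called genes are shown because these are the listed genes that were called on average over both diets. They are RefSeq windows of 300 bases on GRCm38.p6, from 250 bases before to 50 after a gene start, printed 5′ to 3′ on the gene's strand. Capitals mark the GC box letters GGGCGG or, for a box on the opposite strand, CCGCCC; no matches overlap. Such a match occurs in 35.7% of 32851 windows of this length, whose median GC content is 52.7% with a median of 7 CpG dinucleotides. Of the 48 genes, 44 matched a window by symbol.
Itm2c: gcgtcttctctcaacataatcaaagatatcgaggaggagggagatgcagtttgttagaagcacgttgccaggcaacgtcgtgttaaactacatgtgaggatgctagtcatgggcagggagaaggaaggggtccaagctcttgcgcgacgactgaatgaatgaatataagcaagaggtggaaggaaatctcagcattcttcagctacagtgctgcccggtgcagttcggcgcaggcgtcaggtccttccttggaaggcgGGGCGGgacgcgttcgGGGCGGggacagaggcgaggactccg
Pde6d: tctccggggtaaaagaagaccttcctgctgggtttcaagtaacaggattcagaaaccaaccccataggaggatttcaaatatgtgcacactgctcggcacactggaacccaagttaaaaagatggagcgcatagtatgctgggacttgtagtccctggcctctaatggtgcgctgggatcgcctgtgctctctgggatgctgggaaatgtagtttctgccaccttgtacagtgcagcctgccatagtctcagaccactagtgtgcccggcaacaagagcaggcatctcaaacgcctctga
Agap1: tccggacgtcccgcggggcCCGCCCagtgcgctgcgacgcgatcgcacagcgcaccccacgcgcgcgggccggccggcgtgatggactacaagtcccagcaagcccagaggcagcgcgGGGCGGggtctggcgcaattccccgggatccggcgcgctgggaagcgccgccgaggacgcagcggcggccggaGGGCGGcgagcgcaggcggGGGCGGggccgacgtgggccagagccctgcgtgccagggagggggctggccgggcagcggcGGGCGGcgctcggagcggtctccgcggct
Asb1: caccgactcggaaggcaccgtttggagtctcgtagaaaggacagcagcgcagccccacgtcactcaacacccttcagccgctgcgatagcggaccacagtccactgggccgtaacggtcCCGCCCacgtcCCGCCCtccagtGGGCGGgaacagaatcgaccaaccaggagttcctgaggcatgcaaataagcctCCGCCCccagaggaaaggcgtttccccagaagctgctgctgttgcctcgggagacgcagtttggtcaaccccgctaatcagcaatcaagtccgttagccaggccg
Cdh7: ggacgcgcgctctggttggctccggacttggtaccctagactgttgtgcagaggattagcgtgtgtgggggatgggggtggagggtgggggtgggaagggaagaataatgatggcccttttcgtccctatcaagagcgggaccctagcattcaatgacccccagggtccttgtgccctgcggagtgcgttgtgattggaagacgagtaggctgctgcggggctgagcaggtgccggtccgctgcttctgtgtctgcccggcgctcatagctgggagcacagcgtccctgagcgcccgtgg
The window of Itm2c is chr1:85894260-85894559 on the + strand, with 2 GC boxes, 20 CpG dinucleotides and a GC content of 55.3%. That of Pde6d is chr1:86582736-86583035 on the − strand, with 0 GC boxes, 7 CpG dinucleotides and 51.7% GC. The Agap1 window, chr1:89454561-89454860 on the + strand, holds 5 GC boxes and 50 CpG dinucleotides at 80% GC. The Asb1 window, chr1:91540315-91540614 on the + strand and the more upstream of 2 listed, holds 4 GC boxes and 23 CpG dinucleotides at 61.7% GC. The Cdh7 window, chr1:109982650-109982949 on the + strand and the most upstream of 3 listed, holds 0 GC boxes and 18 CpG dinucleotides at 62.7% GC. The 4 genes that fell thus held 0 to 5 GC boxes, and Cdh7, which rose, held 0, as did Pde6d. A match describes letters in this window and not a bound site.

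The counts by role that follow stand against 3.3% of all genes higher and 3.02% lower among the calls, 59.5% negative and a median of −0.04. Among the genes of the cell surface, 7 of 9 were tested, 1 rose and 1 fell on average, and the median difference was −0.13. Itm2c, an integral membrane protein of the BRICHOS family, was the brightest listed gene (place 43 from Sgpp2). On the normal diet Itm2c read 12.88, 12.66 and 12.69 in WT and 12.29, 12.46 and 12.29 in KO. With high-fat food the readings were 12.71, 12.56 and 12.76 in WT and 12.41, 12.47 and 12.33 in KO. Every KO array was below every WT array on both diets. Itm2c differed by −0.40 with normal food (adjusted p = 0.0647) and −0.27 with high-fat food (adjusted p = 0.251), and fell by 0.33 on average (SE 0.06, 1.26-fold, adjusted p = 0.0179). This call was lost in 1 of 21 alternatives, without KO normal array 3 (adjusted p = 0.0546, range over the alternatives 0.00358 to 0.0546).

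Cdh7, a classical cadherin of cell adhesion, was the listed gene farthest from Sgpp2 and had the largest difference of the list. Its brightest probe set, which stands for the gene, read 8.90, 9.42 and 9.58 in WT and 10.54, 9.93 and 10.29 in KO on the normal diet. Under the high-fat diet the arrays read 8.85, 9.11 and 8.46 in WT and 10.20, 9.41 and 9.84 in KO. The groups did not overlap within a diet, but KO high-fat array 2 lay below WT normal arrays 2 and 3. Cdh7 differed by 0.96 with normal food (adjusted p = 0.0849) and 1.01 with high-fat food (adjusted p = 0.158), and rose by 0.98 on average (SE 0.18, 1.98-fold, adjusted p = 0.0137). The other probe sets of Cdh7 differed by −0.32 (adjusted p = 0.327 over all probe sets) and −0.22 (adjusted p = 0.436), and with the mean of its 3 probe sets Cdh7 differed by 0.15 and was no longer called (adjusted p = 0.529). Serpinb8, its neighbour in place 197 and not on the list, rose by 0.71 (adjusted p = 0.0412), a call lost in 10 of 21 alternatives and with the KO pairs as a random block (adjusted p = 0.0782, range over the alternatives 0.0155 to 0.105).

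The remaining genes of the cell surface were not called. Ramp1, which pairs with the calcitonin receptor-like receptor, differed by −0.32 on average, the heparan sulfate proteoglycan Gpc1 by −0.17, the extracellular matrix protein Sned1 by −0.13, the potassium channel subunit Kcne4 by 0.08 and the rhomboid protease Rhbdd1 by 0.07. Ramp1 and Gpc1 were negative on both diets, while Sned1 and Rhbdd1 differed in sign between the diets (Sned1 −0.38 and 0.13, Rhbdd1 −0.08 and 0.22).

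**Figure D2:**
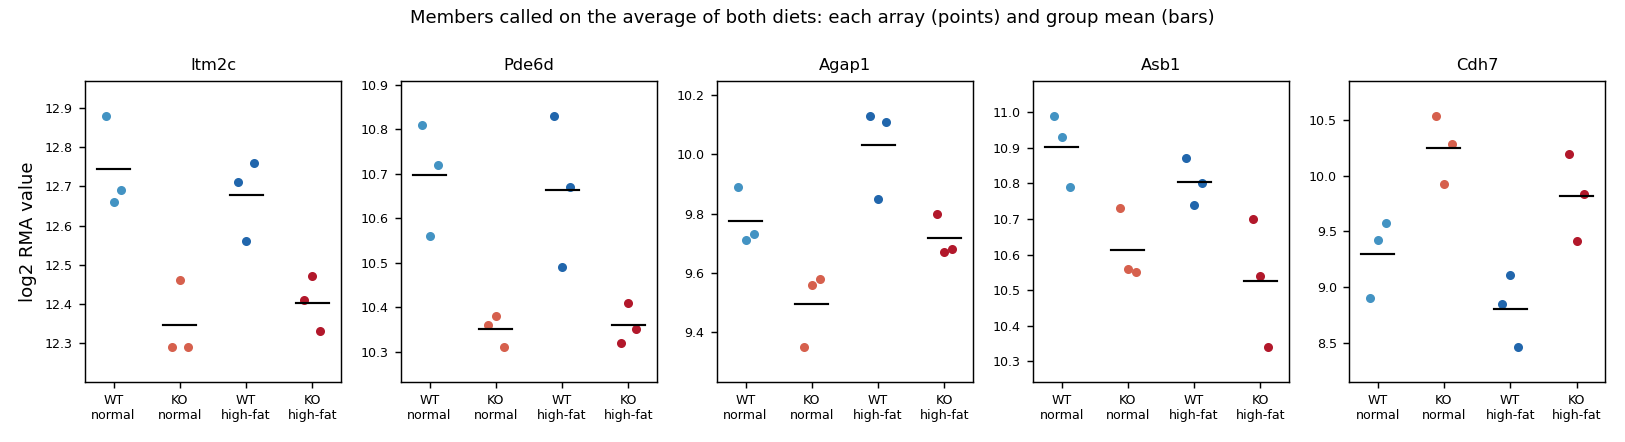
Log2 RMA values of the 5 genes called on the average of both diets, with each array as a point, each group of 3 arrays as a column and the group mean as a bar. Itm2c, Pde6d and Asb1 have all 6 KO arrays below all 6 WT arrays, and Cdh7 lies higher in KO within each diet.

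Among the GTPase regulators, motors and genes of membrane traffic, 10 of 11 were tested, 2 fell (3.02% of all genes did) and 9 of 10 were negative on average (59.5% of all genes were), with a median of −0.19 (−0.04 over all genes). Pde6d, a carrier of prenylated proteins such as small GTPases, lies in place 55. Pde6d read 10.81, 10.56 and 10.72 in WT and 10.36, 10.38 and 10.31 in KO on the normal diet. In the high-fat groups it read 10.83, 10.49 and 10.67 in WT and 10.32, 10.41 and 10.35 in KO. The 6 KO values stayed within a narrow band below every WT value, whose lowest was WT high-fat array 2. Pde6d differed by −0.34 on the normal diet and −0.30 on the high-fat diet, and fell by 0.32 on average (SE 0.07, 1.25-fold, adjusted p = 0.0248). The call was lost in 7 of 21 alternatives, with adjusted p from 0.00876 to 0.0714 over them.

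Agap1, a GTPase-activating protein for Arf proteins in endosomal traffic, lies in place 95. It read 9.89, 9.71 and 9.73 in WT and 9.35, 9.56 and 9.58 in KO on the normal diet. The high-fat arrays read 10.13, 9.85 and 10.11 in WT and 9.80, 9.67 and 9.68 in KO. The groups did not overlap within a diet, but KO high-fat array 1 was above 2 WT normal arrays. Agap1 fell by 0.29 on average (SE 0.07, 1.23-fold, adjusted p = 0.0347), a call lost in 14 of 21 alternatives, with adjusted p from 0.0132 to 0.0943. A further probe set of Agap1 (1435433_at) fell by 0.52 on the normal diet (adjusted p = 0.042 over all probe sets) and by 0.48 on average (adjusted p = 0.00474). The normal-diet call was lost in 14 of 19 alternatives, with the replicate block (adjusted p = 0.0566), cyclic loess (0.063) and median centring (0.0605) among them, over a range of 0.0302 to 0.161.

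Mlph, an effector of Rab27 that links melanosomes to myosin, was dim and not called. Mlph read 6.10, 6.82 and 6.45 in WT and 6.14, 6.06 and 5.85 in KO on the normal diet. High-fat values were 6.57, 6.07 and 6.85 in WT and 5.87, 6.14 and 5.73 in KO. The genotypes overlapped on both diets, with WT normal array 1 and WT high-fat array 2 among the KO values. Its mean difference of −0.51 (SE 0.15, adjusted p = 0.0641) was the second largest in size, after Cdh7. Kif1a, a kinesin of vesicle transport, differed by −0.24, the exchange factor Ngef by −0.23, Farp2 by −0.14, the ciliary transport protein Traf3ip1 by −0.13, Agfg1 by −0.06, the endocytic adaptor Sh3bp4 by −0.03 and the exchange factor Dock10 by 0.03.

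Among the genes of the ubiquitin and proteasome system, 8 of 8 were tested, 1 fell and 5 were negative on average, with a median of −0.08. Asb1, a substrate receptor of cullin ubiquitin ligases, lies in place 118. Asb1 read 10.99, 10.93 and 10.79 in WT and 10.73, 10.56 and 10.55 in KO on the normal diet. With high-fat food the readings were 10.87, 10.74 and 10.80 in WT and 10.70, 10.54 and 10.34 in KO. KO arrays were below WT arrays on either diet, and the nearest values of the genotypes, 10.73 and 10.74, were close. Asb1 fell by 0.28 on average (SE 0.07, 1.22-fold, adjusted p = 0.0419), a call lost in 12 of 21 alternatives, with adjusted p from 0.0273 to 0.109.

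Cops8, a subunit of the COP9 signalosome that removes Nedd8 from cullins, lies directly before Col6a3, in place 101. Cops8 read 11.41, 11.39 and 11.44 in WT and 11.23, 11.30 and 11.21 in KO on the normal diet, and 11.48, 11.34 and 11.46 in WT and 11.28, 11.33 and 11.23 in KO on the high-fat diet. The genotypes did not overlap, and WT high-fat array 2 and KO high-fat array 2 nearly met. Its mean difference of −0.16 was not called (adjusted p = 0.0694). Psmd1, a large subunit of the proteasome's regulatory particle, read 11.58, 11.49 and 11.44 in WT and 11.23, 11.38 and 11.35 in KO on the normal diet. Under the high-fat diet the arrays read 11.51, 11.33 and 11.64 in WT and 11.31, 11.40 and 11.17 in KO, where the genotypes overlapped. Psmd1 differed by −0.19 on average (adjusted p = 0.0978). Cops7b, also of the signalosome, differed by 0.28 (adjusted p = 0.116), Usp40, a deubiquitinase, by −0.13, Ube2f, an E2 enzyme for Nedd8, by 0.04 and the ligase Trip12 by −0.03. For Cul3, the scaffold of a large family of ubiquitin ligases, the brightest probe set differed by 0.01, with a 95% confidence interval from −0.09 to 0.11. Its further probe sets differed by −0.27 (limma adjusted p = 0.143 over all probe sets), −0.13, 0.13 and 0.08.

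The complexes to which these genes belong were read from lists of their subunits, over all chromosomes. These subunit lists count the listed genes themselves. The signalosome list also holds Cops9, which lies in place 130 from Sgpp2 and is not a listed gene. Farsb and Acsl3 are likewise counted in the lists of synthetases below. Of 10 COP9 signalosome genes, 0 were called on average by limma and 9 were negative, with a median of −0.11; the smallest adjusted p values were those of Cops8 and of Cops6 (difference −0.19, adjusted p = 0.112). Of 17 genes of the 19S proteasome, 14 were negative, with a median of −0.12, and 1 was called: Psmc4, an ATPase of its base, rose by 0.31 (adjusted p = 0.00965), which became 0.05 with the mean over its probe sets (adjusted p = 0.575). Of 15 genes of cullins and neddylation tested of 16 listed, 9 were negative and 0 were called, with a median of −0.06; Cul2 differed by −0.20 (adjusted p = 0.0694) and Rbx1 by −0.26 (adjusted p = 0.0972). Over all genes, 6.32% were called on average and 59.5% were negative, with a median of −0.04.

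Among the genes of translation, RNA and mitochondria, 8 of 8 were tested, 0 were called and 6 were negative on average, with a median of −0.16. Farsb, a subunit of phenylalanyl-tRNA synthetase and the first gene telomeric to Sgpp2, read 12.07, 11.99 and 11.97 in WT and 11.72, 11.82 and 11.77 in KO on the normal diet. In the high-fat groups it read 12.32, 11.93 and 12.31 in WT and 11.77, 11.96 and 11.91 in KO. The genotypes overlapped on the high-fat diet only through WT high-fat array 2. Farsb differed by −0.28 on average (adjusted p = 0.0504), and its probe sets were called in opposite directions over all probe sets: 1423709_s_at, the brightest, fell by 0.28 (adjusted p = 0.047) and 1430986_at rose by 0.32 (adjusted p = 0.0407). With the mean over its probe sets Farsb differed by −0.01 on average.

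Ndufa10, a subunit of complex I of the respiratory chain, read 11.37, 11.31 and 11.24 in WT and 11.05, 11.23 and 10.92 in KO on the normal diet. The high-fat arrays read 11.50, 11.19 and 11.49 in WT and 11.19, 11.30 and 10.98 in KO. The genotypes overlapped on the high-fat diet, and the mean difference was −0.24 (adjusted p = 0.0943). Mrpl44, of the large subunit of the mitochondrial ribosome, read 12, 11.92 and 11.94 in WT and 12.21, 12.07 and 12.25 in KO on the normal diet, and 11.87, 12.01 and 11.93 in WT and 12.06, 11.97 and 12.02 in KO on the high-fat diet. It was higher in every KO array on the normal diet, overlapped on the high-fat diet and differed by 0.15 on average (adjusted p = 0.0951). With the mean over its probe sets the sign turned, to −0.08. The exonuclease Dis3l2 differed by −0.24, the selenocysteine lyase Scly by −0.20, Eif4e2, a cap-binding protein, by −0.11, nucleolin (Ncl) by −0.07 and Hdlbp, which encodes the RNA-binding protein vigilin, by 0.09. Of 18 cytosolic aminoacyl-tRNA synthetases tested of 20 listed, 14 were negative (59.5% of all genes were) with a median of −0.18 (−0.04 over all genes), and 1 was called, against 6.32% of all genes: Aars, for alanine, fell by 0.38 (adjusted p = 0.0448), a call lost in 16 of 21 alternatives, with the KO pairs as a random block among them (adjusted p = 0.0755, range over the alternatives 0.00671 to 0.108). Eprs, for glutamate and proline, differed by −0.26 (adjusted p = 0.053).

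Of the genes of signalling and nuclear factors, 9 of 10 were tested, 0 were called and 5 were negative on average, with a median of −0.03. Cab39, which activates the kinase LKB1 with its partner STRAD, read 12.05, 12 and 12.01 in WT and 11.96, 11.82 and 11.85 in KO on the normal diet. High-fat values were 12.14, 12.16 and 12.06 in WT and 11.86, 11.98 and 12.06 in KO, where the highest KO and lowest WT values were level to 2 decimals. Cab39 differed by −0.15 on average (adjusted p = 0.0956). The histone deacetylase Hdac4 differed by −0.23, the phosphatase Ilkap by 0.12, Hes6, a relative of the Notch targets of the Hes family, by 0.10, Pid1 by 0.09, Wdfy1 by −0.09, the nuclear body protein Sp100 by −0.06, Pask, a PAS domain kinase, by 0.04 and Ppp1r7, a regulator of protein phosphatase 1, by −0.03.

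By their brightest probe sets the 3 genes of lipid and phosphoinositide metabolism were negative on both diets and 0 were called. Dgkd, a diacylglycerol kinase, differed by −0.16 on average, Acsl3, which activates long-chain fatty acids, by −0.12 and the inositol phosphatase Inpp5d (SHIP1) of blood cells by −0.07. Probe set 1428386_at of Acsl3 was positive on both diets (0.22 and 0.30) and differed by 0.26 on average (limma adjusted p = 0.0579 over all probe sets). Its dimmer probe set 1428387_at differed by −0.12. Of 4 long-chain acyl-CoA synthetases tested of 5 listed, 3 were negative on average and 1 was called, against 6.32% of all genes on average and 0.84% on the normal diet: Acsl6 fell by 0.21 (adjusted p = 0.0377) and by 0.39 on the normal diet (adjusted p = 0.0445). These calls were lost in 16 and 15 of 21 alternatives, the first with the KO pairs as a random block among them (adjusted p = 0.0771); with the mean over its probe sets Acsl6 differed by −0.05 on average (adjusted p = 0.585). Acsl4 differed by 0.32 (adjusted p = 0.0607). The 3 genes of proteolysis, cell death and autophagy were not called either. Bok, a BCL2 family member, differed by −0.10, the autophagy protein Atg16l1 by −0.06 and the calpain Capn10 by −0.03. For the brightest probe set of Capn10 the 95% confidence interval ran from −0.28 to 0.23.

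Where a gene had several probe sets, their differences were not always alike. The 48 genes had 129 probe sets, of which 122 were above the filter. Tested on their own among 35426 probe sets, 5 of 122 (4.1%) were called on the normal diet, against 1.34% of all probe sets, 1 (0.82%) on the high-fat diet, against 0.271%, and 22 (18%) on average, against 8.39%. Of the 22, 18 were lower and 4 higher in KO, and they belonged to 18 genes. Probe sets of 1 gene share their RNA and are not independent. Of 34 genes with several probe sets above the filter, 12 had all of them on the same side of 0 on average, and in 12 the probe sets lay more than 0.5 apart. The same counts were not made over all genes.

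**Figure D3:**
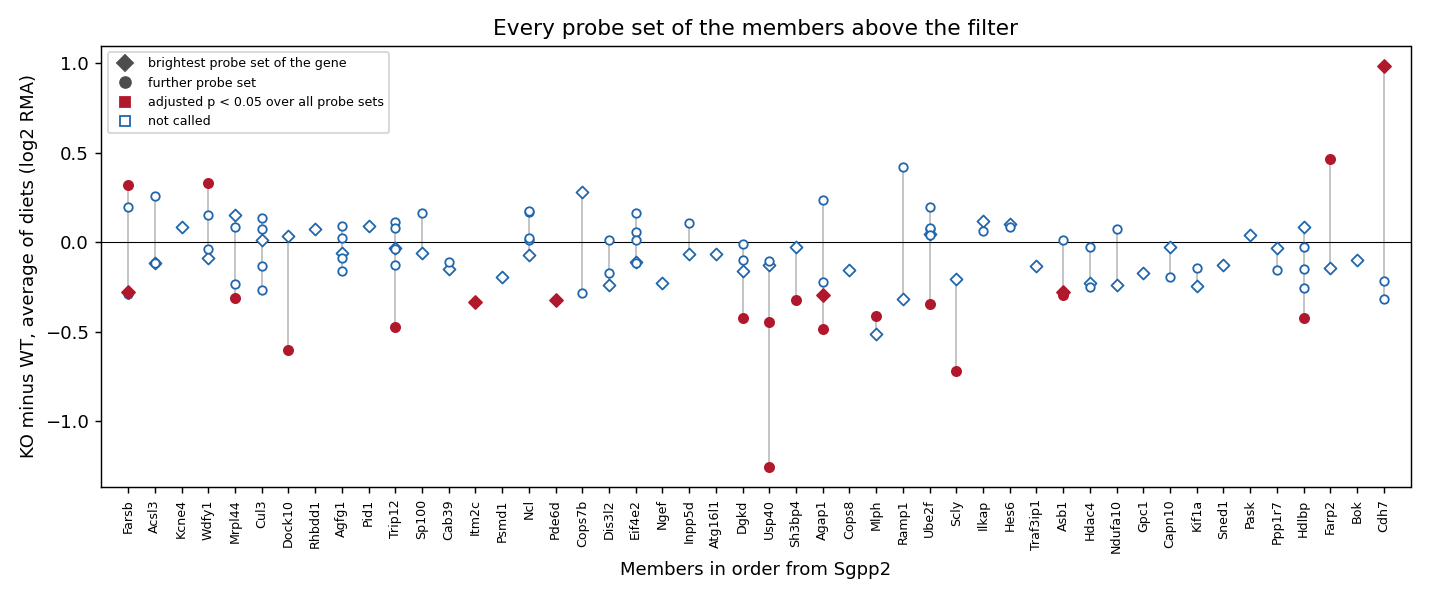
Mean difference between KO and WT over both diets (log2 RMA values) for each of the 122 probe sets of the listed genes, in order from Sgpp2, with the brightest probe set of a gene as a diamond, further ones as circles and called ones filled. Usp40, Scly, Dock10, Farp2 and Cdh7 have a called probe set far from the others of the gene, at −1.25, −0.72, −0.60, 0.46 and 0.98.

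The largest difference of a single probe set was in Usp40, in place 77. Probe set 1458079_at of Usp40 read 7.53, 7.75 and 7.55 in WT and 6.20, 6.12 and 6.09 in KO on the normal diet. With high-fat food the readings were 7.61, 7.12 and 7.51 in WT and 6.74, 6.27 and 6.13 in KO. All KO arrays were below all WT arrays. It fell by 1.47 on the normal diet (SE 0.16, adjusted p = 0.00365), by 1.03 on the high-fat diet (adjusted p = 0.0374) and by 1.25 on average (adjusted p = 0.000444). The call on the high-fat diet was lost in 12 of 19 alternatives, among them the replicate block (adjusted p = 0.0565), with adjusted p from 0.0159 to 0.267. The brightest probe set of Usp40, 1435901_at, differed by −0.03 on the normal and −0.23 on the high-fat diet, 1438242_at fell by 0.45 on average (adjusted p = 0.00997) and 1446209_at differed by −0.10.

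In Scly, place 110, probe set 1441192_at read 9.65, 9.33 and 9.59 in WT and 8.58, 8.81 and 8.38 in KO on the normal diet. Under the high-fat diet the arrays read 9.41, 8.94 and 9.18 in WT and 8.74, 8.79 and 8.48 in KO. The genotypes did not overlap on either diet. This probe set fell by 0.94 on the normal diet (SE 0.15, adjusted p = 0.022) and by 0.72 on average (adjusted p = 0.0044), while the brightest probe set of Scly differed by −0.29 and −0.20.

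In Dock10, probe set 1439247_at read 6.20, 6.17 and 6.09 in WT and 5.56, 5.37 and 5.24 in KO on the normal diet. In the high-fat groups it read 6.56, 6.34 and 6.11 in WT and 5.86, 5.75 and 6.11 in KO. The genotypes were apart on the normal diet and met at 6.11 on the high-fat diet, at levels near the filter. The probe set fell by 0.77 on the normal diet (adjusted p = 0.0297) and by 0.60 on average (adjusted p = 0.00533), against −0.04 and 0.03 for the brightest one. In Farp2, also an exchange factor, probe set 1440799_s_at read 8.02, 7.93 and 8.14 in WT and 8.52, 8.80 and 8.80 in KO on the normal diet. The high-fat arrays read 8.22, 8.28 and 8.39 in WT and 8.62, 8.42 and 8.61 in KO. Every KO array was above every WT array, and the probe set rose by 0.68 on the normal diet (adjusted p = 0.0202) and by 0.46 on average (adjusted p = 0.00583). The brightest probe set of Farp2 differed by −0.09 and −0.14.

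The normal-diet calls fell when single arrays were left out, among these probe sets and among all probe sets tested (1.34% with all arrays). The count of 5 fell to 1 (0.82%) without WT normal array 1 or 3 or KO normal array 2 or 3. Over all probe sets 0.0367%, 0.0565%, 0.0847% and 0.0508% were then called. The count was 2 without WT normal array 2 and 3 without KO normal array 1, against 0.525% and 0.542% of all probe sets. It was 1 in a fit of only the arrays compared, against 0.0932% of all probe sets. With the replicate block, cyclic loess or median centring it was 4, in each case without 1435433_at of Agap1, against 0.494%, 0.954% and 1.69%. The normal-diet calls in Scly, Dock10 and Farp2 were each lost in 6 of 19 alternatives. The remaining probe sets called on average were 1453426_a_at of Wdfy1, which rose by 0.33, and others that fell: 1426651_at of Mrpl44 by 0.31, 1451158_at of Trip12 by 0.47, 1454655_at of Dgkd by 0.42, 1416305_at of Sh3bp4 by 0.32, 1425586_a_at of Mlph by 0.41, 1455569_at of Ube2f by 0.35, 1436208_at of Asb1 by 0.29 and 1415988_at of Hdlbp by 0.42. With KO arrays of the same number as a random block, 14 probe sets (11.5%) were called on average instead of 22, against 5.28% of all probe sets instead of 8.39%.

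**Figure D4:**
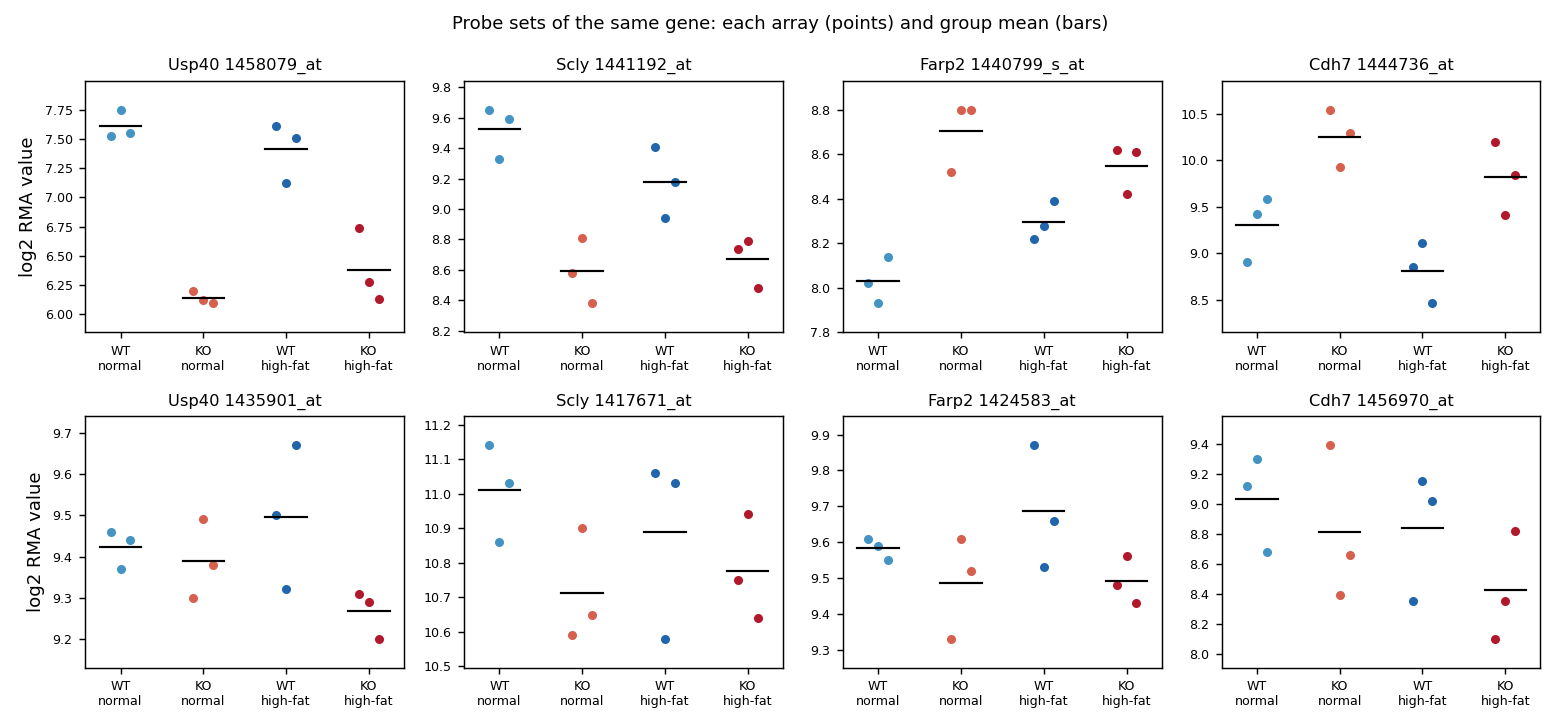
Log2 RMA values of a pair of probe sets for Usp40, Scly, Farp2 and Cdh7, with each array as a point, each group of 3 arrays as a column and the group mean as a bar; the vertical scale differs between panels. In the upper row the genotypes are apart within each diet, and in the lower row they overlap on at least 1 diet in each of the 4 genes.

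By position, and by the brightest probe set of each gene, the listed genes nearest to Sgpp2 had the median difference closest to 0. The 12 genes in places 1 to 40 had a median difference of −0.01 on average, with 6 negative, 0 called and a largest size of 0.28. Tested singly, probe sets of Farsb, Wdfy1, Mrpl44, Dock10 and Trip12 in this stretch were called on average, from −0.60 (Dock10) to 0.33 (Wdfy1). Genes of the other stretches had called probe sets as well. The 13 genes in places 41 to 80 had a median of −0.15, with 12 negative and 2 called, and the 12 genes in places 81 to 120 a median of −0.18, with 9 negative and 2 called. The 10 genes in the next 40 places, up to 160, had a median of −0.12, with 8 negative and 0 called. Cdh7 was the single listed gene in the last 40 places, up to 200. Listed or not, the genes tested in these stretches had medians of −0.02, −0.07, −0.13, −0.05 and 0.08 on average. Of them, 55.6%, 59.4%, 60.9%, 60% and 30% were negative. On other chromosomes the median was −0.04, with 59.8% negative. All genes tested in these stretches, listed or not, were called on average in 18.5%, 9.38%, 34.8%, 8% and 15%, against 6.49% in the 100 places that follow, 9.04% beyond, 13.2% among 152 genes within 200 on the centromeric side and 6.08% on other chromosomes. Neighbours are not independent, and these shares were not tested.

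Called genes that are not on the list lay between listed genes, whose differences stand in brackets. Of 79 other genes tested within 200 of Sgpp2, 8 rose and 8 fell on average, and in 15 (19%) the size was above 0.5, against 2 of the 48 listed genes (4.17%) and 1.63% of all genes. Since the list was made with earlier results of these data known, nothing is read from that contrast. Ap1s3, a subunit of the AP-1 clathrin adaptor in place 7, rose by 1.77 between Kcne4 (0.08) and Wdfy1 (−0.09). Armc9 in place 49 rose by 0.90 between Psmd1 (−0.19) and Ncl (−0.07), although its sign turned to −0.086 with the mean over its probe sets. Col6a3, a collagen VI chain, fell by 2.43 between Cops8 (−0.16) and Mlph (−0.51), and Rab17 (−1.36) and Lrrfip1 (−1.04) lay between Mlph and Ramp1 (−0.32). Klhl30 in place 112 rose by 1.63, a call lost in 13 of 21 alternatives, between Scly (−0.20) and Ilkap (0.12), and the kinase Stk25 in place 151 fell by 1.53 directly between Farp2 (−0.14) and Bok (−0.10). D2hgdh in place 157 fell by 1.30 between Bok (−0.10) and Cdh7 (0.98), and Utp14b in place 3 fell by 0.86, a call lost in 5 of 21 alternatives, between Farsb (−0.28) and Acsl3 (−0.12). With the mean over probe sets D2hgdh differed by −0.61 and Rab17 by −0.68, still called. With the KO pairs as a random block Klhl30 (adjusted p = 0.0684, range over the alternatives 0.00406 to 0.0972) and Utp14b (adjusted p = 0.0505, range 0.0133 to 0.0704) were not called. Mlph and Cdh7 were the only listed genes with a size above 0.5.

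The effect of genotype was also compared between the diets. By limma 0 of the 48 genes were called for this interaction, against 0% of all genes, with a smallest adjusted p of 0.939. An unadjusted p under 0.05 was found for 4 of them (8.33%), against 4.97% of all genes. These 4 were Sned1, whose genotype difference was higher on the high-fat diet by 0.51 (95% confidence interval 0.09 to 0.94), Rhbdd1 by 0.30, Ube2f by −0.25 and Hdlbp by −0.25. In WT the high-fat diet changed 0 of the 48 genes past the threshold, against 0.0788% of all genes. By limma 5 (10.4%) had an unadjusted p under 0.05, against 11.1% of all genes. In 8 (16.7%) the diets did not overlap, against 15.8% of all genes. Sned1 came closest: it read 8.49, 8.05 and 8.40 in WT on the normal diet and 7.61, 7.35 and 7.57 in WT on the high-fat diet. These groups did not overlap, and Sned1 differed by −0.80 between the diets in WT (SE 0.14, adjusted p = 0.0728). In KO it read 8.05, 7.88 and 7.85 on the normal and 7.87, 7.57 and 7.46 on the high-fat diet, which overlapped, and differed by −0.29 (adjusted p = 0.661). In KO 0 of the 48 genes were called for diet, against 0% of all genes. By limma 4 (8.33%) had an unadjusted p under 0.05, against 7.7% of all genes. In 7 (14.6%) the diets did not overlap, against 13% of all genes.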

How the data were processed

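Total RNA was hybridised to 12 Affymetrix arrays, with groups taken from the labels. The authors deposited log2 RMA values for each probe set, made with Partek 6.6 per the submitters' processing notes; annotation and build of the array are not stated in the labels. RMA gives all arrays 1 distribution, so that it would mask a common shift, and it compresses differences of dim probe sets. That the scale is log2 was judged from the range of values, 2.6 to 15.3. The number of arrays, and not depth, limits the precision: the median standard error over all genes was 0.09 for the average of both diets.

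The 45101 probe sets comprised 64 controls, 34945 with 1 gene symbol, 932 with several and 9160 that the probe table leaves out. A gene took the values of its brightest probe set (mean over all arrays). This gave 18193 genes, and 15237 passed the filter, which asked for a log2 value over 5 in 3 or more arrays. Gene order came from RefSeq gene starts (GRCm38.p6), and distances were counted in protein-coding genes. All 12 arrays entered 1 limma 3.58.1 fit in R 4.3.3, with a mean for each group and 8 residual degrees of freedom. Moderated tests were two-sided, with Benjamini-Hochberg adjustment over all genes tested in a comparison. Probe sets above the filter were tested singly in the same way. The script was tested on simulated data. Python 3.11.15 with matplotlib 3.10.9 made the plots.

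As a check on pairing, deviations from the group means were correlated between same-numbered arrays. They were 0.29, 0.38 and 0.14 between the KO groups, and no other pair of groups had all 3 over 0.1. What a number stands for is not in the labels, so this pairing comes from the values. Alternatives were 2 other normalizations, 2 other filters, the mean over probe sets, every probe set and an intensity trend. Further ones were the replicate number as a block and each array left out. Comparisons of 2 groups added a fit of only the arrays compared. The average of both diets added the KO pairs as a random block. For single probe sets, the mean over probe sets and every probe set did not apply.

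Values of every array are given for the genes called in KO against WT and, up to 12, for those with the smallest p on average, and for called probe sets that stand apart from their gene's brightest one, which were chosen after their values were seen. Neighbours were named by the size of the average difference among those called. The listed genes, the subunit lists and the marker lists were chosen with earlier results of these data known. Ductal (5 of 8 tested), immune (11 of 12), stromal (8 of 8), Schwann cell (4 of 6), liver (4 of 5) and fat cell (1 of 5) markers were also read: on average 2, 5, 5, 2, 2 and 0 of those tested were higher in KO and 0, 0, 1, 0, 0 and 0 were called. Over all genes, 59.5% were lower in KO on average and 6.32% were called.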

Additional observations from a re-analysis of the deposited data

How the results depend on the processing

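Percentages in brackets are the shares of all genes called in the same fit. On average over both diets the count of 5 listed genes called (6.32%) was 3 after cyclic loess (5.59%) and 2 after centring each array on its median (7.13%). It was 8 with an intensity trend (9.48%). With the mean over probe sets (4.41%) it was 6, which were 3 of the 5, and Usp40, Mlph and Scly. With KO arrays of the same number as a random replicate block (2.31%) it was 3. Leaving out 1 array gave 1 to 14 (1.67% to 16.4%). On the normal diet, where 0 were called (0.84%), the mean over probe sets called Usp40 alone (0.466%) and the trend Itm2c alone (2.22%). Leaving out 1 array called 0 there (0.0131% to 1.46%). On the high-fat diet leaving out 1 array gave 0 to 1 (0% to 1.79%), and for diet in WT cyclic loess called Sned1 alone (0.118%). The cause was not tested.

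The alternatives for single probe sets were chosen after seeing the data. Shares of all probe sets called in the same fit stand in brackets. Against 5 called probe sets on the normal diet (1.34%), 8 were called with a trend (2.62%) and 1 with only the arrays compared (0.0932%). With an array left out, 1 to 5 were called there (0.0367% to 1.73%). On the high-fat diet the count of 1 (0.271%) became 2 with a trend (1%) and 0 with only the arrays compared (0.00565%). There it was 0 with the replicate block (0.0762%) and 0 to 5 with an array left out (0.0311% to 2.57%). On average the count of 22 (8.39%) became 14 with the random replicate block (5.28%) and 11 to 33 with an array left out (3.46% to 14.3%). With the replicate number as a block over all arrays, 4 listed genes and 15 of their probe sets were called on average, against 3.44% of all genes and 5.69% of all probe sets. This block changed no other count of listed genes called, each of them 0. Over all genes, normal-diet calls went from 128 to 9 with it.

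With the mean over probe sets the sign turned for Farsb on the normal diet (0.06), for Mrpl44 (−0.054 on the normal diet, −0.10 on the high-fat diet and −0.077 on average) and for Armc9 on average (−0.086). Probe set 1460045_at of Cdh7 turned with 1 array left out, with high-fat differences from −0.315 to 0.076 over the arrays; it was positive without array 2 (0.061) or array 3 (0.001) of WT high-fat and without array 1 of KO high-fat. On average 36 to 48 of the 48 genes kept their sign over the alternatives, with 36 for the mean over probe sets. The other filters, every probe set, the intensity trend and the replicate blocks leave the differences themselves unchanged, so 48 was fixed in advance there.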
